A study of Mus musculus with 28 samples.

Results

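The 80 genes described here encode protein subunits of the mitochondrial respiratory chain. They were chosen by gene symbol, as the protein-coding Nduf (a, b, c, s and v), Sdh, Uqcr and Cox4 to Cox8 genes and the mitochondrially encoded Nd, Co, Cytb and Atp genes, and they are 80 of the 21764 protein-coding genes and 50600 genes in the count table. Of these, 67 are encoded in the nucleus and 13 in mitochondrial DNA. Another 6 genes with matching symbols are processed pseudogenes and were left out. Adult female C57BL/6 mice of genotype PdgfrαCre R26mTmG gave the mammary cells that were sorted and sequenced as RNA. In these mice Cre made under the control of Pdgfra, a receptor gene of mesenchymal progenitors, switches a reporter from tdTomato to GFP, so GFP+ cells express Pdgfra or descend from cells that did, and tdTomato+ cells carry an unswitched reporter. Lineage-negative stromal cells (CD49f- EpCAM-) and luminal epithelial cells (CD49flo EpCAM+) were each divided into GFP+ and tdTomato+ cells, from 4 untreated mice and from 3 mice given pellets of estradiol and progesterone (E+P). This gave 8 groups and 28 libraries, each from a single mouse.

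The respiratory chain sits in the inner mitochondrial membrane and passes electrons from NADH and succinate to oxygen, pumping protons that drive ATP synthesis. Complex I (NADH dehydrogenase), complex III (cytochrome bc1) and complex IV (cytochrome c oxidase) combine subunits made from nuclear genes with subunits made from mitochondrial DNA, whereas the 4 subunits of complex II (succinate dehydrogenase) are all nuclear. Several complex IV subunits exist as a widely expressed form and a tissue form. Cox6a2, Cox7a1 and Cox8b are the forms of heart and skeletal muscle, Cox4i2 is a form of lung and of some contractile vascular cells, and Ndufa4l2 is a hypoxia-responsive relative of the complex IV subunit Ndufa4. The mitochondrial members mt-Atp6 and mt-Atp8 belong to the ATP synthase and came with the mitochondrial genes.

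The libraries held 8623383 to 24583803 counts, with a median of 15329083.5. Levels are given as CPM, the count of a gene relative to the TMM-scaled library total, unless another scale is named. The sorted populations were checked by the summed CPM of marker lists. A luminal epithelial list reached 4587 to 7909 CPM in luminal libraries and 3.86 to 505 in stromal libraries, and a fibroblast list reached 32298 to 61683 CPM in GFP+ stroma, 1791 to 6600 in tdTomato+ stroma and at most 111.4 in luminal libraries. The tdTomato+ stroma stood apart in 2 further lists. Its pericyte and smooth muscle list summed to 7973 to 11155 CPM, against 779 to 925 in GFP+ stroma and 104 to 252 in luminal cells. Its skeletal muscle fibre list summed to 4928 to 42830 CPM, against 34.9 to 51.2 in GFP+ stroma and 8.21 to 99.8 in luminal cells, and it varied between mice, with over 20000 CPM in 4 of the 7 mice (untreated mice 1 and 2, E+P mice 1 and 2). In luminal cells, a progenitor list was higher in GFP+ libraries (1410 to 3574 CPM) than in tdTomato+ libraries (124.1 to 1126), and a hormone-sensing list was lower (171 to 1855 against 2033 to 5336). Basal epithelial and haematopoietic lists stayed at or under 132 and 52.8 CPM in all 28 libraries, an endothelial list at or under 271, a Schwann cell and glia list at or under 330 and a mature adipocyte list at or under 288. In bulk samples of this kind, fewer cells of a type and less RNA per cell cannot be told apart.

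The mitochondrial members differed widely in their counts and in how far their sequence is shared with copies in the nuclear genome. mt-Co2 is shown as an example. Its first 75 bases, the read length of the study, are printed from the coding strand of GRCm38 beside the same stretch of its annotated pseudogene copies on chromosomes 1 and 2, with bases that differ from mt-Co2 in capitals. The mitochondrial stretch is chrM:7013-7087 (plus strand), that of Gm28661 is chr1:24615491-24615565 (minus strand) and that of Gm13341 is chr2:22587888-22587962 (minus strand).
mt-Co2: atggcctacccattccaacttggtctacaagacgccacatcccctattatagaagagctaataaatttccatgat
Gm28661: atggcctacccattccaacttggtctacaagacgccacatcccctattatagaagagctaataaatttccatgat
Gm13341: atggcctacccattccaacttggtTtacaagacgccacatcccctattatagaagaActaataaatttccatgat
The chromosome 1 copy had 0 differences from mt-Co2 over this stretch and the chromosome 2 copy had 2. Over whole genes, 97.8% to 99.9% of the 75-base windows of mt-Nd3, mt-Nd4l, mt-Co2, mt-Co3 and mt-Atp6 occurred unchanged in another annotated gene, and these genes had median counts of only 3 to 38.5 over the 28 libraries. In mt-Nd1, mt-Nd6, mt-Cytb, mt-Nd5 and mt-Nd2 this share was 0% to 5.71%, in mt-Co1 39.8% and in mt-Nd4 61.5%, and these 7 genes had median counts of 1411 to 45404. mt-Atp8 had 0% of windows shared with an annotated gene and a median count of 5. It lies between mt-Co2 and mt-Atp6 in mitochondrial DNA. Their chromosome 1 copies, Gm28661 (from chr1:24614885) and Gm10925 (to chr1:24614651), leave a stretch with no annotated copy between them. Only annotated genes were searched, so whether mt-Atp8 shares sequence with that stretch is not known from this search. The 7 well-counted genes held 99.9% of all mitochondrial member counts and the other 6 held 0.145%, and the 7 annotated chromosome 1 copies summed to 16.8 to 183 CPM per library. Levels of mt-Nd3, mt-Nd4l, mt-Co2, mt-Co3, mt-Atp6 and mt-Atp8 are therefore uncertain, and sums over mitochondrial members describe the other 7.

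**Figure D1:**
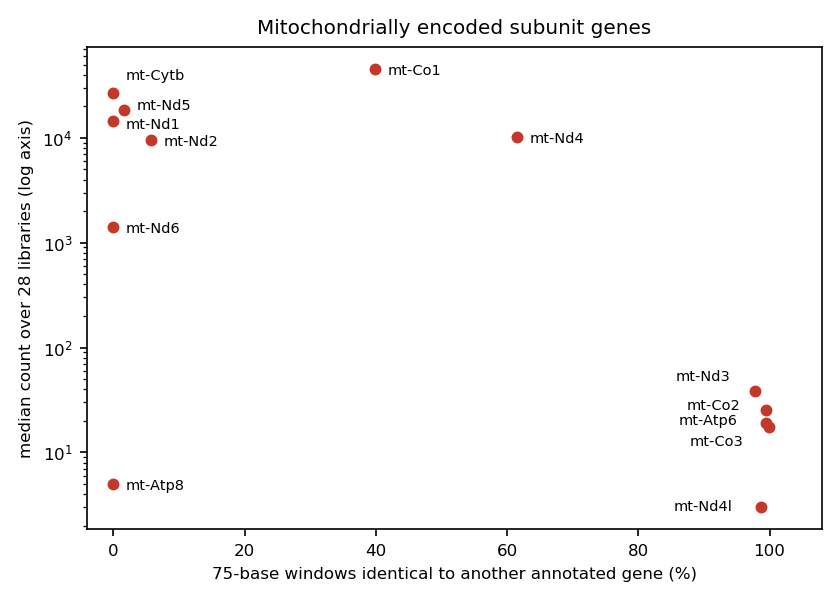
Median count over 28 libraries (log axis) of each mitochondrially encoded member against the percent of its 75-base windows that occur unchanged in another annotated gene. The 5 genes with 97.8% to 99.9% shared windows have median counts of 3 to 38.5. mt-Atp8 is low at 5 with no window shared with an annotated gene, and unannotated sequence was not searched.

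Promoters of the nuclear members are printed for 3 genes that stand for the patterns described further on: Cox6a1, the widely expressed form of subunit VIa, which rose with E+P in tdTomato+ luminal cells; Uqcr11, a small complex III subunit lower in GFP+ cells of both lineages; and Cox8b, a muscle form. Each is the 250 bases before the RefSeq start of the gene in GRCm38.p6, read 5′ to 3′ along the gene (minus strand for all 3), at chr5:115348959-115349208, chr10:80406822-80407071 and chr7:140900447-140900696. Capitals mark motif matches, searched on both strands.
Cox6a1: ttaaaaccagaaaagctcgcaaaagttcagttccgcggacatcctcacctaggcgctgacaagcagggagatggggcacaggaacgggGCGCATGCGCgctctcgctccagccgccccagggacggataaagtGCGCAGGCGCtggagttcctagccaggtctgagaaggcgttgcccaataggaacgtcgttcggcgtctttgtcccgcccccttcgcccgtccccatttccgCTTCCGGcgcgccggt
Uqcr11: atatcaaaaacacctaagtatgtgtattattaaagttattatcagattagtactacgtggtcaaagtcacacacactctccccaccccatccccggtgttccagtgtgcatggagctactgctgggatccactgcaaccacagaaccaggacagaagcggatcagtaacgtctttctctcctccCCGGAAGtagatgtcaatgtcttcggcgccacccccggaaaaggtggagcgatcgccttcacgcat
Cox8b: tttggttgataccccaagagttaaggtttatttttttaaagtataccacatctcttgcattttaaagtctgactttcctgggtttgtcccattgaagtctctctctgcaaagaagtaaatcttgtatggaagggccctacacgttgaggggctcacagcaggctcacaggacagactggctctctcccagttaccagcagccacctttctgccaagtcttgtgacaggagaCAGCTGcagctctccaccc
The Cox6a1 window held matches to the NRF1 motif (GCGCA and GCGC with any 1 base between) at positions -162 and -117 from the start and to the GABPA motif (CCGGAAG, here as its reverse complement) at -16. The Uqcr11 window held a GABPA match at -66, and the Cox8b window a match to the E-box CAGCTG of myogenic factors at -19. Windows of 300 bases (250 before and 50 after the start) were found for 53 of the 67 nuclear members, which gave 55 windows. The NRF1 motif was in 21.8% of them and in 6.61% of 20095 windows of protein-coding genes, the GABPA motif in 11 of 55 against 11.9%, the YY1 motif (AAGATGGC) in 12.7% against 3.11% and the ESRRA motif (CAAGGTCA) in 3.64% against 1.25%. The MEF2 motif (CTA and TAG with any 4 bases between) was in 1.82% against 3.40%, and CAGCTG in 9.09% against 15.8%. A match is a run of letters and not a measured binding site.

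Per kilobase of exon, 7 of the 13 mitochondrial members stood above every nuclear member, and the 6 weakly counted ones did not. Averaged over the 28 libraries, mt-Co1 stood at 1882 CPM per kilobase, followed by mt-Cytb at 1436, mt-Nd1 at 1042, mt-Nd2 at 628, mt-Nd5 at 621, mt-Nd4 at 522 and mt-Nd6 at 173. The highest nuclear members were Uqcrb, which binds ubiquinone in complex III, at 62.3, Cox4i1 at 59.5, Uqcrh at 55.8 and Cox8a at 47.7. At the low end stood Ndufb7 at 4.06, Ndufs3 at 3.27, Ndufb4 at 2.41, and Ndufb2 and Cox6b2 at 1.48 each. Exon length was merged over all annotated transcripts, 5628 bases for Ndufb2 and 4522 for Ndufb7, so this order depends on the annotation. Cox7b2, a testis form, had 0 counts in all 28 libraries, and Cox8c had 4 counts in 1 library, so neither entered a test. Low counts also removed mt-Nd4l throughout and, in the fits of luminal cells, mt-Atp8, Cox4i2, Cox6a2, Cox8b and Ndufa4l2. The nuclear members tested were thus 65 in stroma and 61 in luminal cells, and the mitochondrial ones 12 and 11.

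Summed over members, both gene sets were lowest in GFP+ stroma. The 67 nuclear members summed to 1261 ± 107 CPM (SD, n = 4) in untreated and 1311 ± 54.6 (n = 3) in E+P-treated GFP+ stroma, and to 1984 ± 536 and 1992 ± 499 in tdTomato+ stroma. In GFP+ luminal cells they summed to 1524 ± 145 untreated and 1719 ± 123.5 with E+P, and in tdTomato+ luminal cells to 1837 ± 144 and 2468 ± 256. The 2 stromal ranges did not overlap (1163 to 1402 CPM in GFP+ and 1572 to 2727 in tdTomato+ libraries), nor did those of tdTomato+ luminal cells with and without E+P (2288 to 2761 against 1696 to 2031). The 13 mitochondrial members took 0.446% ± 0.0155 of all counts in untreated GFP+ stroma and 0.394% ± 0.0308 with E+P, against 1.03% ± 0.195 and 1.05% ± 0.0229 in tdTomato+ stroma. Their share was 0.773% ± 0.0847 in untreated GFP+ luminal cells, 1.05% ± 0.137 with E+P, and 0.877% ± 0.0697 and 1.00% ± 0.136 in tdTomato+ luminal cells. The ratio of mitochondrial to nuclear sums separated treated from untreated GFP+ luminal cells (5.17 to 5.73 against 3.93 to 4.72), which was not the case in tdTomato+ luminal cells (3.75 to 4.82 against 3.60 to 4.79). These sums are descriptions and were not tested.

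**Figure D2:**
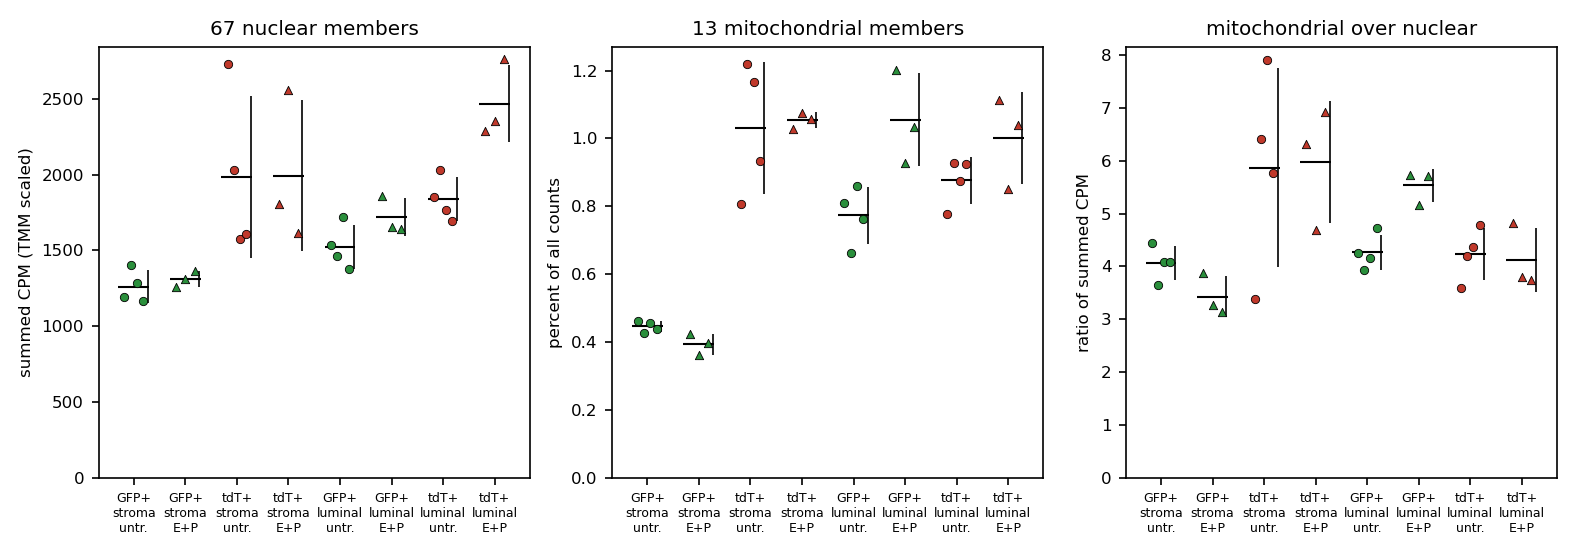
Summed CPM of the 67 nuclear members, percent of all counts taken by the 13 mitochondrial members, and the ratio of the 2 sums, by group (green, GFP+; red, tdTomato+; circles, untreated; triangles, E+P; each point is 1 library, horizontal line the mean, vertical line ± 1 SD; tdT, tdTomato; untr., untreated). GFP+ stroma is lowest in the first panels, and tdTomato+ luminal cells with E+P have the highest nuclear mean, 2468 CPM.

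The first comparison asked how GFP+ stroma, the Pdgfra lineage, differed from tdTomato+ stroma of the same mice. In the GFP+ cells 28 of the 65 nuclear members tested were lower and 0 were higher (edgeR, adjusted p under 0.01). These 28 include Cox6a2, Cox8b and Cox7a1, which passed the low-count filter only through tdTomato+ stroma, so their direction was fixed. Among all 17783 genes tested 42.0% passed, 21.3% lower and 20.6% higher. The median log2 fold change of the nuclear members was -0.56, against -0.01 over all genes and 0.03 over protein-coding genes, and 59 of the 65 lay below 0. By complex, 13 of 35 members of complex I, 1 of 4 of complex II, 6 of 8 of complex III and 8 of 18 of complex IV were lower. The mitochondrial members moved further, with 10 of 12 lower and a median of -1.46. The groups did not overlap for 14 of the 65 nuclear members, against 26.5% of all genes tested.

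The muscle forms of complex IV had the widest differences. Cox6a2, Cox8b and Cox7a1 had at most 7 counts in any GFP+ stromal library and passed the low-count filter only through tdTomato+ stroma. Their direction was fixed by the filter, so their values and adjusted p are a description. Cox6a2, the muscle form of subunit VIa, had 69.1, 52.8, 17.2 and 13.7 CPM in untreated and 42.6, 107 and 30.8 in E+P-treated tdTomato+ stroma, and 0 counts in all GFP+ stromal and all luminal libraries. With a floor of 3 counts set for the low group, this is 1771-fold above GFP+ stroma (edgeR adjusted p = 0.000147) and 4141-fold above luminal cells. With 95% counting error of the low group alone, the lower limits are 1440 and 3367. Cox8b, the muscle form of subunit VIII, had 16.3, 11.8, 3.12 and 1.85 CPM in untreated and 13.1, 27.97 and 6.67 in E+P-treated tdTomato+ stroma, and at most 0.227 CPM in any GFP+ stromal library. Its 7 counts in all of GFP+ stroma gave a ratio of 189 (edgeR adjusted p = 8.74e-07). The 95% counting interval, from these 7 counts alone, is 91.9 to 471. Cox7a1 had 11.2, 11.4, 0.664 and 3.69 CPM in untreated and 8.07, 18.1 and 7.59 in treated tdTomato+ stroma, against 0.122 to 0.542 in GFP+ stroma (log2 fold change -4.66 ± 0.58 (SE), edgeR adjusted p = 5.09e-06). In each of these genes every tdTomato+ stromal library was above every GFP+ one, and untreated mice 3 and 4 were the 2 lowest of the tdTomato+ libraries. Those mice also had the lowest skeletal muscle list sums, 8362 and 4928 CPM, and E+P mouse 2, highest in all 3 genes, had the highest sum, 42830 CPM.

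The 3 muscle forms thus moved with the skeletal muscle fibre list, which was high in tdTomato+ stroma and in no other population, and its part in these differences was not tested. Their widely expressed partners did not pass. Cox6a1 had 18.8, 15.7, 24.5 and 12.0 CPM in untreated and 17.2, 20.6 and 25.8 in treated tdTomato+ stroma, against 23.4, 29.1, 25.4 and 19.8 and then 19.0, 24.5 and 27.3 in GFP+ stroma. It was higher in GFP+ cells in 7 of 7 mice, by 0.29 ± 0.16 on the log2 scale, which did not pass (edgeR adjusted p = 0.139). Cox8a differed by -0.05 ± 0.18 and Cox7a2 by -0.31 ± 0.17, neither of which passed (edgeR adjusted p = 0.8285 and 0.143).

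Cox4i2 and Ndufa4l2 differed by a different pattern over mice. Cox4i2 had 16.8, 18.1, 14.6 and 19.8 CPM in untreated and 7.25, 10.4 and 6.61 in E+P-treated tdTomato+ stroma, and 1.44, 1.16, 0.975 and 0.550, then 0.162, 0.317 and 0.197, in GFP+ stroma (log2 fold change -4.58 ± 0.26, edgeR adjusted p = 1.81e-10). Ndufa4l2 had 33.0, 23.0, 17.9 and 25.8 CPM in untreated and 18.1, 15.5 and 20.1 in treated tdTomato+ stroma, against 0.975 to 2.79 in GFP+ stroma (-3.57 ± 0.24, edgeR adjusted p = 1.08e-09). Here untreated mouse 4, lowest for Cox6a2 and Cox8b, was the highest for Cox4i2 and the second highest for Ndufa4l2. Both genes stayed at or under 0.705 CPM in luminal cells. The pericyte and smooth muscle list, 7973 to 11155 CPM in these tdTomato+ libraries and 779 to 925 in GFP+ stroma, differed between the subsets as both genes did. Over the tdTomato+ libraries it did not rank as Cox4i2 did. Untreated mouse 4 had a list sum of 8338 CPM, and E+P mouse 1, with Cox4i2 at 7.25, had 9286. Untreated mouse 1 was highest in both the list and Ndufa4l2. The part of this list in the difference was not tested. Their partners Cox4i1 (-0.39 ± 0.12) and Ndufa4 (-0.13 ± 0.22) did not pass (edgeR adjusted p = 0.0114 and 0.654), though Cox4i1 was lower in GFP+ cells in 7 of 7 mice.

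**Figure D3:**
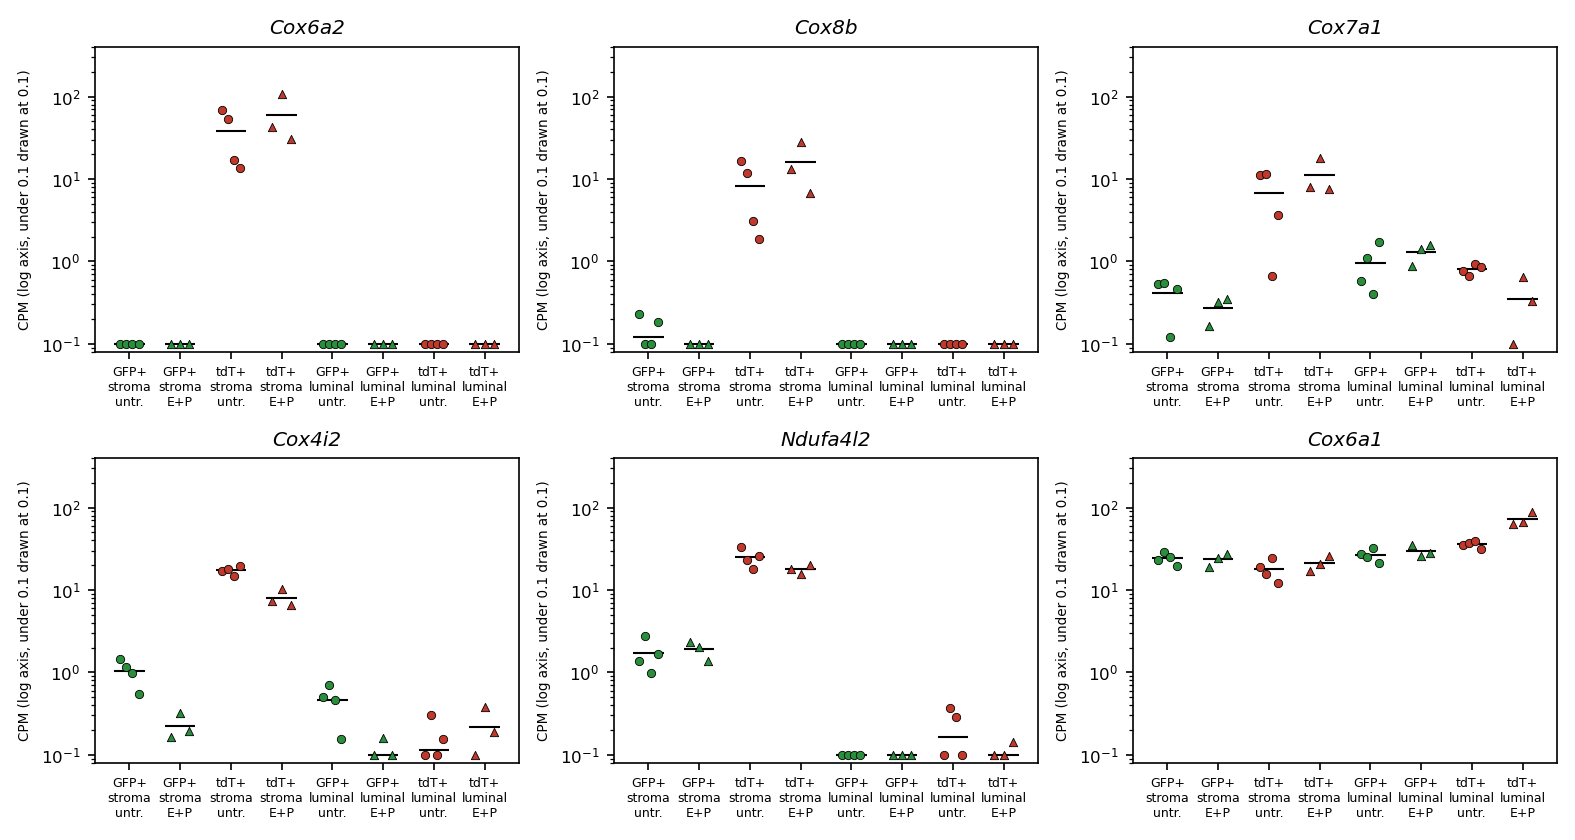
CPM per library (log axis; values under 0.1 are drawn at 0.1) of Cox6a2, Cox8b, Cox7a1, Cox4i2, Ndufa4l2 and Cox6a1 in the 8 groups (circles, untreated; triangles, E+P; lines, means; tdT, tdTomato; untr., untreated). Every tdTomato+ stromal library lies above every GFP+ stromal library in each panel but that of Cox6a1, the widely expressed partner of Cox6a2, which lies between 12.0 and 29.1 CPM in stroma.

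Among the other members described, the differences were smaller than in these tissue forms and spread over the complexes. Another annotated gene overlapped 27 of the 67 nuclear members, on the other strand in 23, and the strand setting of the counting is not given in the sources used here. Ndufc1, an accessory subunit of complex I, had 33.4, 24.3, 9.82 and 7.97 CPM in untreated and 19.0, 31.3 and 17.6 in treated tdTomato+ stroma, against 5.50 to 8.76 in GFP+ stroma (-1.51 ± 0.29, edgeR adjusted p = 0.000395). Uqcr11, Uqcrq, Cox5a, Sdhb and Ndufc2 were chosen after their values were seen. In complex III, Uqcr11 had 44.1, 22.2, 11.5 and 20.8 CPM, then 11.1, 27.7 and 7.10, in tdTomato+ stroma, against 5.76 to 8.80 in GFP+ stroma (-1.47 ± 0.32, edgeR adjusted p = 0.00112). Uqcrq, which lies beside cytochrome b, had 28.1, 29.3, 16.5 and 13.3 CPM, then 30.0, 40.1 and 19.8, against 7.42 to 13.9 (-1.26 ± 0.21, edgeR adjusted p = 6.18e-05). For these 3 genes the highest tdTomato+ libraries were untreated mouse 1 or E+P mouse 2, both among the 4 with over 20000 CPM of skeletal muscle RNA, and the lowest tdTomato+ library fell within the range of the GFP+ ones. Uqcr11 and Uqcrq were each higher in GFP+ cells in 1 of 7 mice. Cox5a, a complex IV subunit on the matrix side, was lower by -1.11, and Sdhb, the iron-sulfur subunit of succinate dehydrogenase, by -0.68. The members with the smallest differences were Cox8a, Ndufa13 (-0.08), Ndufs4 (0.11) and Ndufs1 (-0.11), and none of them passed. Of the 6 nuclear members above 0, Ndufc2 was the furthest, at 0.67 ± 0.22 (edgeR adjusted p = 0.0147).

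The nuclear median moved from -0.56 to -0.22 without the 4 mice over 20000 CPM of skeletal muscle RNA. This comparison was added after the data were seen and rests on 3 mice, untreated mice 3 and 4 and E+P mouse 3. Its E+P groups thus had no replicate, and only effect sizes are given. Cox8b was at -5.86, Cox4i2 at -4.74, Ndufa4l2 at -3.98 and Ndufc1 at -0.79. Cox6a2 and Cox8b entered this fit through tdTomato+ stroma as well. With all mice but E+P mouse 2, 16 nuclear members passed the threshold, and leaving out any other single mouse gave 21 to 29. The part of muscle RNA in the differences of the remaining members was not tested.

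The mitochondrially encoded members were lower in GFP+ stroma as well, and the part of muscle RNA in their differences was not tested. mt-Cytb, the mitochondrial subunit of complex III, had 1808, 2712, 2643 and 1859 CPM in untreated and 2311, 2340 and 2142 in treated tdTomato+ stroma, against 899, 813, 855 and 867, then 828, 715 and 715, in GFP+ stroma (-1.51 ± 0.11, edgeR adjusted p = 2.71e-09). mt-Co1, the catalytic subunit of complex IV, had 3054, 4134, 4022 and 2592, then 3810, 3991 and 3900 CPM, against 1577 to 1921 in GFP+ stroma (-1.09 ± 0.11, edgeR adjusted p = 2.07e-07). In both genes every tdTomato+ library lay above every GFP+ one. The complex I subunits mt-Nd5 (-1.50), mt-Nd4 (-1.43), mt-Nd2 (-1.35) and mt-Nd1 (-0.94) were likewise lower with no overlap. mt-Nd6, the sole member encoded on the other strand of mitochondrial DNA, fell by 0.46 ± 0.13 with overlapping groups (edgeR adjusted p = 0.00551). Of the weakly counted genes, mt-Co2 (-1.67), mt-Atp6 (-1.56) and mt-Atp8 (-2.64) passed, and mt-Nd3 (-3.03) and mt-Co3 (-1.31) did not. mt-Atp8, with at most 5 counts in any GFP+ stromal library, entered the fit through tdTomato+ stroma, so its value is a description. Without the 4 mice, in the fit whose E+P groups had no replicate, the mitochondrial median was -1.37. There mt-Cytb was at -1.50, mt-Nd5 at -1.49, mt-Nd4 at -1.43, mt-Nd2 at -1.37, mt-Co1 at -1.12 and mt-Nd1 at -0.96. The mitochondrial ribosomal RNAs mt-Rnr1 and mt-Rnr2, no members, took 3.94% to 4.66% of counts in GFP+ stroma and 5.76% to 9.55% in tdTomato+ stroma.

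**Figure D4:**
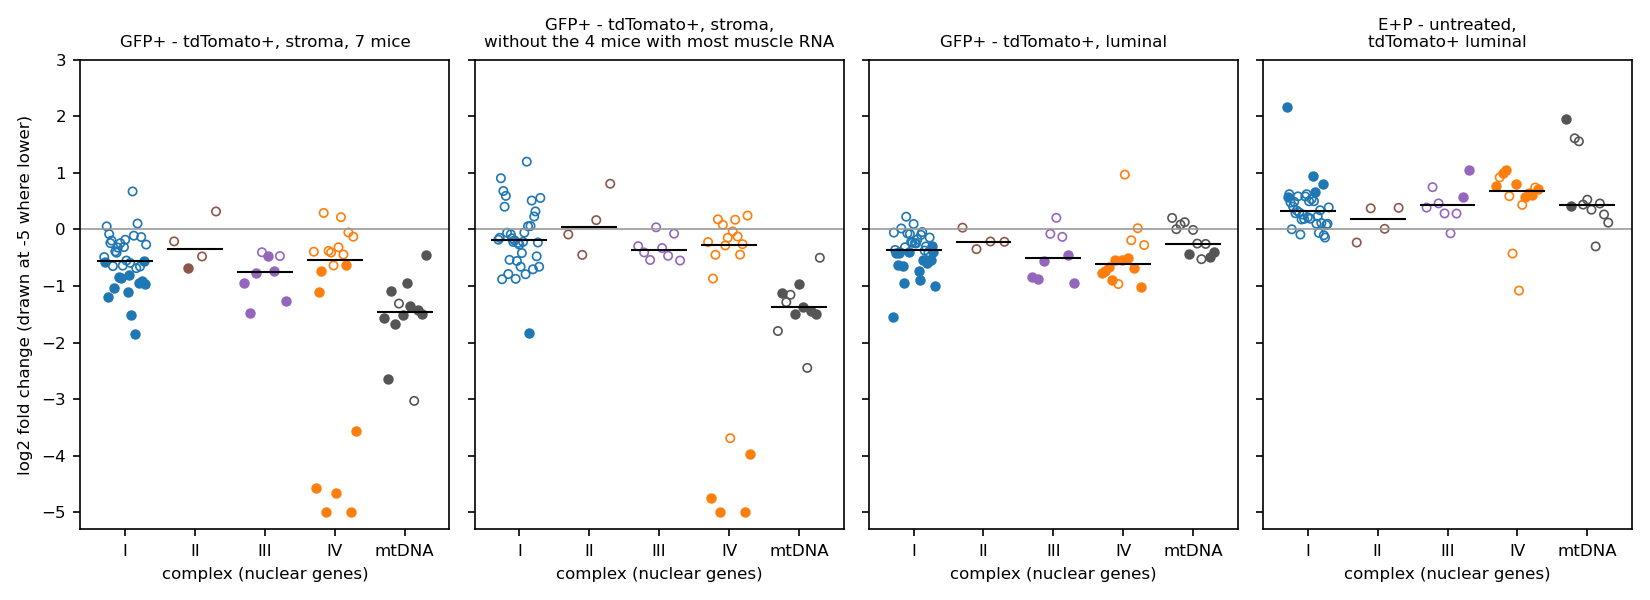
Log2 fold changes of the members tested (1 point per gene; filled, edgeR adjusted p under 0.01; line, median), nuclear members by complex and mitochondrial members (mtDNA) together, for GFP+ minus tdTomato+ stroma with 7 mice, the same without the 4 mice over 20000 CPM of skeletal muscle genes, GFP+ minus tdTomato+ luminal cells, and E+P minus untreated tdTomato+ luminal cells. Values under -5 are drawn at -5. The mitochondrial median is -1.46 with 7 mice and -1.37 without the 4. The fit without the 4 has no replicate in its E+P groups, and its filled points are not read as calls.

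Genes around the chain were described by 4 lists. Their counts stand beside 21.3% lower and 20.6% higher among all genes tested in stroma. Of 17 nuclear ATP synthase subunits 10 were lower in GFP+ stroma and 0 higher (median -0.71), among them the c-subunit gene Atp5g1 (-1.11), Atp5d (-1.13) and Atp5k (-1.22). Of 22 electron carriers and entry points, 6 were lower and 2 higher. Cycs, which encodes cytochrome c, was lower (-1.54), as were proline dehydrogenase Prodh (-3.11) and the ubiquinone synthesis gene Coq8a (-2.58), while the sulfide oxidase Sqor was higher (1.33). Assembly factors of complexes I to IV had 6 of 51 higher and 2 lower (median 0.12), both under the shares of all genes. Of 25 regulators of mitochondrial biogenesis and mitochondrial DNA expression 5 were lower and 0 higher, including the coactivator Ppargc1b (-3.04) and the nuclear receptor Esrrg (-2.27). Cytosolic ribosomal protein genes, taken as another set of short abundant transcripts, had 8 of 78 lower and 1 higher (median -0.14).

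GFP+ luminal cells were compared with tdTomato+ luminal cells in the same way. Of 61 nuclear members tested, 29 were lower in GFP+ cells and 0 higher (edgeR, adjusted p under 0.01). Among all 16538 genes 34.7% passed, 19.0% lower and 15.7% higher. The nuclear median was -0.40, against 0.00 over all genes, and 54 of 61 lay below 0. The lower members were 15 of 35 in complex I, 0 of 4 in complex II, 5 of 8 in complex III and 9 of 14 in complex IV. Of 11 mitochondrial members 3 were lower, with a median of -0.25. The count fell to 15 nuclear members without E+P mouse 3, to 17 without E+P mouse 2 and to 19 without untreated mouse 2, and the mitochondrial count fell to 1 without E+P mouse 1, 2 without untreated mouse 2 or 4 or E+P mouse 2, and 0 without E+P mouse 3. With scaling by library size alone, which shifted the median of all genes to 0.14, 16 nuclear members were lower, 2 were higher and 0 mitochondrial members passed.

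Ndufa1, an X-linked accessory subunit of complex I (chrX:37187588-37191163, minus strand), differed most. It had 6.90, 5.33, 6.05 and 3.46 CPM in untreated and 10.7, 5.71 and 7.95 in treated GFP+ luminal cells, against 11.4, 9.79, 8.45 and 6.75, then 36.7, 38.7 and 44.6, in tdTomato+ luminal cells (-1.55 ± 0.18, edgeR adjusted p = 1.23e-05). Cox8a, the widely expressed form of subunit VIII, had 18.4, 21.8, 32.1 and 23.4, then 32.4, 28.5 and 24.2 CPM in GFP+ cells, against 28.4, 50.1, 41.3 and 42.1, then 59.9, 68.3 and 70.8, in tdTomato+ cells (-1.02 ± 0.14, edgeR adjusted p = 4.75e-05). Cox6a1 had 27.0, 25.2, 32.1 and 21.1, then 35.6, 25.9 and 28.1 CPM in GFP+ cells, against 35.2, 37.6, 39.5 and 31.3, then 63.2, 66.1 and 89.5, in tdTomato+ cells (-0.89 ± 0.12, edgeR adjusted p = 3.16e-05). In all 3 genes the GFP+ library was below the tdTomato+ library of the same mouse in 7 of 7 mice, and for Ndufa1 and Cox6a1 the ratio was wider in every treated mouse than in any untreated one. Ndufv3, Uqcrq and Ndufa7 were lower by -1.0, -0.95 and -0.94. Cox4i1 was lower by -0.77. Cox6b2, the testis form of subunit VIb, differed by -0.96 without passing (edgeR adjusted p = 0.0228).

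Mitochondrial members differed less between the luminal subsets. mt-Nd5 (-0.48 ± 0.10), mt-Cytb (-0.43 ± 0.11) and mt-Nd6 (-0.41 ± 0.09) were lower in GFP+ cells (edgeR adjusted p = 0.00147, 0.00596 and 0.00214). mt-Co1 (0.01 ± 0.07) and mt-Nd1 (-0.01 ± 0.10) had the smallest differences, together with the nuclear members Ndufa5 (0.02) and Cox7c (0.02). The progenitor and hormone-sensing luminal lists moved with the subset, as given with the markers, and their part in these differences was not tested. Among all genes tested here 19.0% were lower and 15.7% higher. Of the lists around the chain, 7 of 17 ATP synthase subunits were lower and 0 higher (median -0.34). Assembly factors had 8 of 51 lower and 4 higher, and carriers 3 of 22 lower and 4 higher. Of 26 regulators 3 were lower and 3 higher, with the coactivator Ppargc1a higher (2.51) and the nuclear receptor Esrrb lower (-3.48). Cytosolic ribosomal protein genes went the other way, with 22 of 76 higher and 1 lower (median 0.20).

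The stromal and luminal comparisons shared no library, though they shared the mice. Of 61 nuclear members tested in both, 14 were lower in GFP+ cells in both lineages, against 4.46% of the 15037 genes tested in both. They are 14 of the 24 stromal and 14 of the 29 luminal calls among these 61 members, and over the 15037 genes 19.8% were lower in stroma and 19.4% in luminal cells. They included Ndufa6, Ndufa12, Ndufc1, Ndufs5, Ndufs8, Ndufv1 and Ndufv2 of complex I, Uqcr10, Uqcr11, Uqcrb and Uqcrq of complex III, and Cox5a and Cox5b of complex IV. A direct test of whether the GFP+ to tdTomato+ difference itself differed between the lineages passed for 11 nuclear members (8 more negative in stroma, 3 less) and 9 mitochondrial members, all more negative in stroma. Among all 19569 genes 33.2% passed this test, 17.0% more negative and 16.3% less. mt-Co1 (-1.11), mt-Nd4 (-1.18) and mt-Nd2 (-1.11) were among those whose difference was larger in stroma. The nuclear members less negative in stroma were Cox6a1 (1.17), Cox8a (0.95) and Ndufc2 (0.76). The nuclear count was 4 without E+P mouse 2, 6 without E+P mouse 1 and 7 without untreated mouse 2, and 6 mitochondrial members passed without E+P mouse 2.

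Between lineages, averaging over subset and treatment, 25 of 65 nuclear members were lower in stroma than in luminal cells and 5 were higher (edgeR, adjusted p under 0.01; 63.5% of all 19569 genes passed, 30.5% lower and 33.0% higher). The median was -0.25, against 0.02 over all genes. Those higher in stroma included Ndufa4l2 (6.70), Cox8b (5.92), Cox4i2 (3.74) and Cox7a1 (1.14), which were high in tdTomato+ stroma. Ndufa4l2, Cox8b and Cox4i2 did not pass the low-count filter in luminal cells and entered this fit through stroma, Cox8b through tdTomato+ stroma. Their direction was fixed by the filter, so their values are a description. Cox6a2, at 0 counts in every luminal library, did not pass here (edgeR adjusted p = 1), since GFP+ stroma was also at 0. The lower members were led by Ndufa4 (-1.30 ± 0.12), Ndufa7 (-1.28 ± 0.12) and Ndufc2 (-1.27 ± 0.12), with edgeR adjusted p = 3.99e-10, 2.32e-10 and 2.92e-10. Ndufa4 had 4.11 to 13.2 CPM in the 14 stromal libraries and 14.6 to 29.0 in the 14 luminal ones, with no overlap. Cox8a (-0.85), Cox6a1 (-0.81) and Cox5b (-0.73) followed, and Cox6c (-0.02), Ndufa2 (-0.05), mt-Nd1 (0.07) and Sdhb (-0.08) differed least. Of 12 mitochondrial members, mt-Nd6 (0.68) and mt-Nd2 (0.46) were higher in stroma and mt-Cytb (-0.38), mt-Co1 (-0.32) and mt-Nd5 (-0.28) were lower. These averages join stromal subsets that differed. mt-Co1 stood at 1577 to 1921 CPM in GFP+ stroma and 2592 to 4134 in tdTomato+ stroma, against 2475 to 4085 in luminal cells. mt-Nd2 stood at 376 to 527 CPM in GFP+ stroma and 1041 to 1207 in tdTomato+ stroma, against 308 to 763 in luminal cells. Without E+P mouse 1 the nuclear count was 17, and without E+P mouse 3 it was 18. Scaling by library size alone, which moved the median of all genes to -0.27, gave 49 lower and 4 higher nuclear members. Of the lists, assembly factors had 19 of 51 lower and 5 higher, ATP synthase subunits 6 of 17 lower and 0 higher, carriers 11 of 22 lower and 3 higher, regulators 12 of 26 lower and 7 higher, and cytosolic ribosomal protein genes 53 of 78 lower and 1 higher.

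In tdTomato+ luminal cells, E+P went with higher levels of 15 of 61 nuclear members and lower levels of 0 (edgeR, adjusted p under 0.01). Among all 16538 genes 14.1% passed, 7.63% higher and 6.44% lower. The nuclear median was 0.40, against -0.05 over all genes, 53 of 61 lay above 0, and for 34 of 61 the treated and untreated libraries did not overlap, against 35.8% of all genes. Complex IV led with 8 of 14 members higher, against 5 of 35 in complex I, 2 of 8 in complex III and 0 of 4 in complex II. The complex IV members were Cox4i1, Cox5b, Cox6a1, Cox6c, Cox7a2l, Cox7b, Cox7c and Ndufa4. Of the 15 members, 9 were also among those lower in GFP+ than in tdTomato+ luminal cells, a comparison that shares these libraries.

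Ndufa1 rose most, from 11.4, 9.79, 8.45 and 6.75 CPM untreated to 36.7, 38.7 and 44.6 with E+P (log2 fold change 2.16 ± 0.24, edgeR adjusted p = 4.19e-05). Cox6a1, whose promoter is printed with its NRF1 matches, rose from 35.2, 37.6, 39.5 and 31.3 to 63.2, 66.1 and 89.5 CPM (1.05 ± 0.16, edgeR adjusted p = 0.000409). Uqcrq rose from 13.6, 16.7, 15.6 and 12.8 to 27.8, 30.2 and 31.1 CPM (1.05 ± 0.17, edgeR adjusted p = 0.00055). In each gene all 3 treated libraries lay above all 4 untreated ones. Cox5b, a zinc-binding subunit of complex IV, rose from 34.8, 39.9, 38.3 and 40.4 to 67.8, 70.3 and 86.6 CPM (0.99 ± 0.19, edgeR adjusted p = 0.0019). Cox4i1, the widely expressed form of subunit IV, rose from 115, 123, 110 and 88.2 to 158, 175 and 216 CPM (0.77 ± 0.16, edgeR adjusted p = 0.00348). Ndufb9 and Ndufs6, accessory subunits of complex I, rose by 0.94 and 0.80. Ndufs6 no longer passed without untreated mouse 1 or without any 1 of the E+P mice (edgeR adjusted p = 0.0104 to 0.0261), nor with library size only (0.0219), and Cox5b no longer passed without E+P mouse 2 (0.0112). Again no treated library overlapped an untreated one. Ndufa13 (0.00), Sdhc (0.01), Uqcrc2 (-0.07) and Ndufv1 (0.08) differed least.

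Of the 11 mitochondrial members, mt-Co1 (0.42 ± 0.09) and the weakly counted mt-Atp6 (1.95 ± 0.47) rose (edgeR adjusted p = 0.00496 and 0.00774), with a median of 0.44 over the 11. mt-Co1 went from 2617, 2738, 2696 and 2814 to 3673, 3177 and 3875 CPM, with all treated libraries above the untreated ones. The nuclear count rested on few treated mice: it was 8 without E+P mouse 1, 7 without E+P mouse 2 and 6 without E+P mouse 3, and the mitochondrial count was 0 without untreated mouse 1 or 3 and 1 without any other mouse, which without E+P mouse 1 was mt-Nd3, lower at -4.60. Scaling by library size alone, which moved the median of all genes to -0.27, left 6 nuclear members higher, 1 lower and 0 mitochondrial members. Other values moved with treatment too. The hormone-sensing list fell from 3661 to 5336 CPM untreated to 2033 to 3251 with E+P, and the progenitor list from 262 to 1126 to 124.1 to 211 CPM. Within the hormone-sensing list the mean of Prlr went from 2942 to 1422 CPM, and Esr1, Foxa1, Cited1 and Ly6a also fell. Pgr (485 to 654) and Areg (307 to 365) rose. The part of both lists in these changes was not tested. Over all genes tested 7.63% were higher and 6.44% lower. Cytosolic ribosomal protein genes had 48 of 76 higher and 0 lower (median 0.46), and protein-coding genes with under 1500 exonic bases had 97 of 847 higher (11.5%, median 0.16). Of the lists around the chain, ATP synthase subunits had 5 of 17 higher and 0 lower (Atp5k at 1.00), carriers 4 of 22 higher and 1 lower, assembly factors 1 of 51 higher and 2 lower, and regulators 0 of 26 higher and 2 lower, with Esrrg lower (-4.17).

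In GFP+ luminal cells 0 of 61 nuclear members passed with E+P and 1 of 11 mitochondrial members was higher, against 5.96% of all genes, 3.17% higher and 2.78% lower. Of the nuclear members 13 had an unadjusted edgeR p under 0.05, against 29.9% of all genes, DESeq2 gave 2 members against 12.3% and limma-voom 0 against 5.88%. The nuclear median was 0.17. The member that rose was mt-Co1, from 2722, 2475, 2720 and 2613 to 4037, 3432 and 4085 CPM with no overlap (0.55 ± 0.09, edgeR adjusted p = 0.00225). Without E+P mouse 1 it was at 0.49 with an edgeR adjusted p of 0.0245, and the count was 0, and without E+P mouse 3 it was at 0.53 with an edgeR adjusted p of 0.0111, while mt-Co3 passed in its place. The median over the 11 mitochondrial members was 0.55, and 8 of them passed with DESeq2. mt-Cytb went from 1235, 959, 1498 and 1250 to 2173, 1659 and 1779 CPM (0.60 ± 0.16, edgeR adjusted p = 0.0216), and mt-Nd2 from 382, 308, 437 and 384 to 751, 530 and 517 (0.66 ± 0.18, edgeR adjusted p = 0.0222). Both had all treated libraries above all untreated ones but did not pass. The mitochondrial ribosomal RNAs took 5.57% to 8.49% of counts untreated and 12.8% to 14.7% with E+P, and the progenitor list stood at 2271 to 3574 CPM untreated and 1410 to 1563 with E+P. Every gene of the hormone-sensing list also had a lower mean with E+P, such as Prlr (611 to 126 CPM) and Pgr (103 to 41.0). The part of both lists in these changes was not tested. Of the lists, ATP synthase subunits had 2 of 17 higher, carriers 1 of 22 higher and 1 lower, and assembly factors and regulators 0.

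Whether E+P acted differently on the 2 luminal subsets was tested as an interaction, which 0 members passed, against 2.27% of all genes (0.780% in the positive and 1.49% in the negative direction). Unadjusted, 16 nuclear and 0 mitochondrial members had an edgeR p under 0.05, against 3633 of all 16538 genes. DESeq2 gave 2 nuclear members and 6.13% of all genes, and limma-voom gave 1 and 2.57%. By edgeR the nearest were Ndufa1 (E+P effect in GFP+ less that in tdTomato+ cells, -1.60 ± 0.35, edgeR adjusted p = 0.0153) and Cox6a1 (-0.88 ± 0.23, edgeR adjusted p = 0.0358). With the mouse as a block, which pairs the subsets, 1 nuclear member passed, Ndufa1 (-1.62 ± 0.26, edgeR adjusted p = 0.00633), and 2.88% of all genes did. Of the regulators, 1 passed, Esrrg (4.21).

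**Figure D5:**
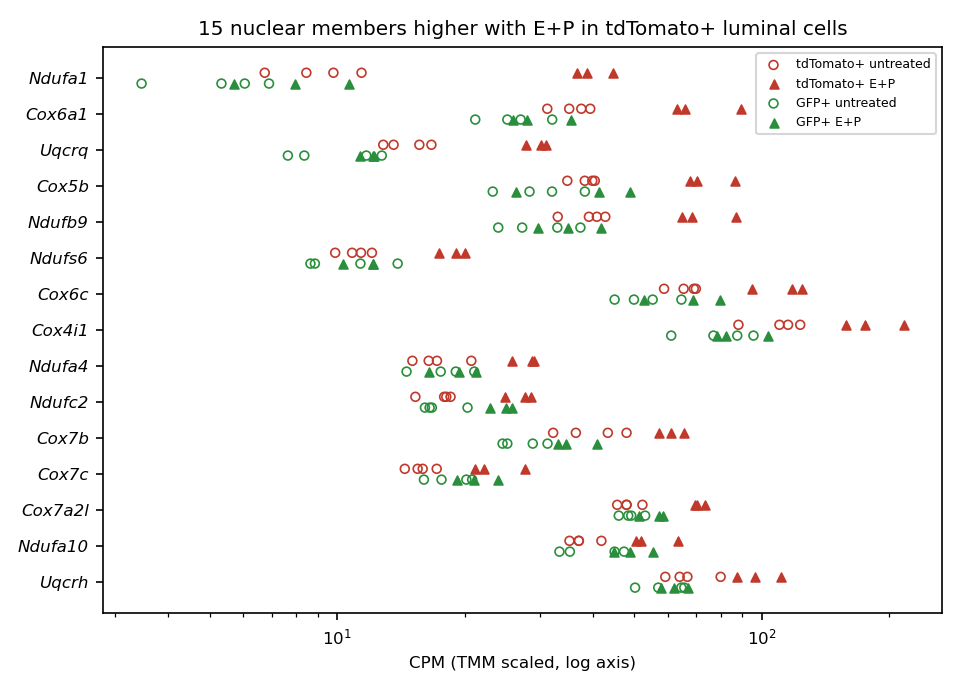
CPM per library (log axis, TMM scaled) of the 15 nuclear members higher with E+P in tdTomato+ luminal cells (red), with GFP+ luminal cells (green) beside them; open circles are untreated and filled triangles E+P-treated mice. For each gene the 3 red triangles lie to the right of the 4 red circles, as for Ndufa1 with 36.7 to 44.6 against 6.75 to 11.4 CPM.

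In stroma, E+P changed no member by edgeR: 0 of 65 nuclear and 0 of 12 mitochondrial members passed in GFP+ stroma, where 0.231% of all genes did (0.163% higher and 0.0675% lower), and likewise in tdTomato+ stroma, where 0.124% did (0.0281% higher and 0.0956% lower). Unadjusted edgeR p were under 0.05 for 1 nuclear and 1 mitochondrial member in GFP+ stroma, against 8.03% of all genes, and for 8 and 3 in tdTomato+ stroma, against 15.6%. limma-voom gave 0 members in both, and DESeq2 gave 1 nuclear member in each and 1 mitochondrial member in GFP+ stroma, against 1.08% of all genes in GFP+ and 2.16% in tdTomato+ stroma. The nuclear medians were 0.07 in GFP+ and 0.09 in tdTomato+ stroma and the mitochondrial ones -0.13 and 0.15. In GFP+ stroma Sdha, the flavoprotein subunit of succinate dehydrogenase, had 97.5, 107, 103 and 100.1 CPM untreated and 103, 101 and 97.6 with E+P (-0.01 ± 0.13), which was among the smallest differences. In tdTomato+ stroma Cox4i1 differed by -0.01 ± 0.17 and mt-Cytb by 0.01 ± 0.15. The interaction of subset and treatment passed for 0 members, against 0.0450% of all genes, with 4 nuclear and 0 mitochondrial members at an unadjusted edgeR p under 0.05, against 10.4% of all genes, and 0 by DESeq2 or limma-voom. All 4 lists around the chain had 0 members called in these stromal comparisons.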

How the data were processed

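RNA-seq libraries were made from 28 sorted cell samples with the SMARTer stranded total RNA pico kit. The authors deposited raw counts per gene, with no normalization. The submitters' processing notes name STAR 2.5.2a and GRCm38.p5. The counting tool's strand setting and the annotation release are not given in the sources used here. Gene models were taken from GENCODE M21, which held 50376 of the 50600 gene IDs, 45737 of them in the same version. No column of per-sample values went unused (0 columns).

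The 4 groups of a lineage (14 libraries), or all 8 groups (28 libraries), were fitted together with edgeR 4.0.16 in R 4.3.3 (filterByExpr, TMM scaling, robust quasi-likelihood F-test, two-sided). P-values were adjusted over all genes tested by the Benjamini-Hochberg method, with adjusted p under 0.01 as the threshold. A prior count of 2 was used only for the log2 CPM behind the directions per mouse and the exact permutation tests. limma 3.58.1 (voom), DESeq2 1.42.0, an adjusted p of 0.05, other scalings, no filter, leaving out each mouse and a replicate block were alternatives, and a fit without 4 mice rich in skeletal muscle RNA was chosen after seeing the data. The fit was tested on simulated data with 200 changed genes. Tables and figures were made with Python 3.11.15, numpy 2.4.6, pandas 2.3.3, scipy 1.17.1 and matplotlib 3.10.9. Libraries of 1 number and treatment came from the same mouse per the sample titles. Deviations from the group means correlated by 0.237 (luminal) and 0.0788 (stromal) within a mouse, and by -0.0416 between mice of 1 treatment. An untreated and a treated mouse with the same number are different animals (-0.0146). The block was the mouse for comparisons of subsets and lineages and for the interactions. For E+P against untreated it was the replicate number, which joins different animals.

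Members named are up to 6 per direction with the largest change, at least 10 CPM and the same side in every mouse, the 4 smallest differences, the isoform pairs and the mitochondrial genes. In stroma, Uqcr11, Uqcrq, Cox5a, Sdhb and Ndufc2 were named outside this rule, after their values were seen. A single member is counted with the others but not reported here. The members, the 4 lists around the chain and the 11 marker lists were chosen with earlier results of these data known, so lists are described by counts and medians only. Single genes were also compared by exact permutation tests over mice, two-sided, 138 in all, of which 48 had a p under 0.05 and 0 an adjusted p under 0.05. The smallest p such tests can give is 0.0156 for 7 mice and 0.0286 for 4 against 3. Intervals at 95% and the floor of 3 counts cover counting error of the low group only.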

Additional observations from a re-analysis of the deposited data

Results flagged for a closer look

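In 3 of 105 groups of 4 libraries checked, 1 library stood apart from the other 3, where chance gives about 1 in 20. Cox8b was at 0.0571 CPM in GFP+ luminal untreated mouse 3 and at 0.0723 CPM in tdTomato+ luminal untreated mouse 3, against 0 in the other libraries of each group, and each value is a single count. Ndufc2 was at 20.3 CPM in GFP+ luminal untreated mouse 3, against 16.1 to 16.7 in the other 3 mice.

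For 20 members, the difference between GFP+ and tdTomato+ cells differed between stroma and luminal cells (edgeR, all 28 libraries, adjusted p under 0.01). Values are given for 19 of them, as the log2 difference in stroma less that in luminal cells. Of the mitochondrial members, mt-Nd1 was at -0.94, mt-Nd2 at -1.11, mt-Nd4 at -1.18, mt-Nd5 at -1.02, mt-Cytb at -1.09 and mt-Co1 at -1.11. The weakly counted mt-Co2, mt-Atp6 and mt-Atp8 were at -1.77, -1.77 and -3.39. Of complex I, Ndufa12 was at -0.79, Ndufa9 at -0.56, Ndufb7 at -0.88 and Ndufc2 at 0.76. Uqcrc2 of complex III was at -0.69. Of complex IV, Cox4i2 was at -4.69, Cox7a1 at -5.64 and Cox7c at -0.67, while the widely expressed Cox6a1 and Cox8a were at 1.17 and 0.95. Cox4i2 did not pass the low-count filter in luminal cells and entered through stroma, and mt-Atp8 likewise failed it in luminal cells, so their values are a description. The pericyte and skeletal muscle lists were high in tdTomato+ stroma alone among the 4 sorted populations, and their part in these differences was not tested.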

How the results depend on the processing

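Of 326 counts and levels under an alternative, 263 stayed within 1.5 times or 1 SD of the reported value. In GFP+ against tdTomato+ stroma, the fit without the mice rich in muscle RNA had no replicate in its E+P groups, so its counts are not given. Scaling by library size only gave 18 nuclear and 0 mitochondrial members between luminal subsets, 53 and 8 between lineages, and 17 nuclear members for the difference between lineages, as did an adjusted p under 0.05 (17). It moved the median of all genes to 0.14 between luminal subsets and to -0.27 between lineages. For E+P in GFP+ stroma, 1 nuclear member passed at 0.05, with DESeq2 or without the filter, and 1 mitochondrial member with DESeq2 or without the filter. In tdTomato+ stroma, 1 nuclear member passed with DESeq2 and 1 mitochondrial member without the filter. For E+P in GFP+ luminal cells, 4 nuclear members passed at 0.05 and 2 with DESeq2, and the mitochondrial count was 9 at 0.05, 8 with DESeq2, 5 without the filter and 0 with library size only or the groups compared only. For E+P in tdTomato+ luminal cells, the nuclear count was 27 at 0.05 and 7 with library size only, and the mitochondrial count 6 at 0.05, 4 with DESeq2, 0 with library size only and 1 with the groups compared only. For the luminal interaction, 2 nuclear members passed at 0.05 or with DESeq2 and 1 with limma-voom or without the filter. The mean summed CPM of nuclear members in GFP+ stroma, 1282, was 1122 with library size only and 1428 with nuclear genes scaled among themselves, that of mitochondrial members, 4838, was 4233 and 5383, and that of nuclear members in GFP+ luminal cells, 1608, was 1853 with library size only.

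With the mouse as a replicate block, which pairs the subsets, 27 nuclear and 9 mitochondrial members passed in stroma, 28 and 3 between luminal subsets and 30 and 5 between lineages. The mouse block gave 1 nuclear member for the luminal interaction. For E+P against untreated the block was the replicate number, which joins different animals and is no true pairing. In tdTomato+ luminal cells it gave 13 nuclear members and 1 mitochondrial member. No other count moved by over 1.5 times with either block.

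Leaving out each mouse in turn gave 16 to 29 nuclear and 7 to 9 mitochondrial members in stroma, 15 to 28 and 0 to 3 between luminal subsets, 17 to 31 and 4 to 5 between lineages, and 4 to 10 and 6 to 9 for the difference between lineages. With E+P it gave 6 to 16 and 0 to 1 in tdTomato+ luminal cells, 0 to 1 and 0 to 1 in GFP+ luminal cells, 0 to 1 and 0 to 0 for the luminal interaction, and 0 to 0 in both stromal comparisons and the stromal interaction. The direction turned in 1 case: without E+P mouse 1, the 1 mitochondrial member called in tdTomato+ luminal cells was mt-Nd3, lower by -4.60 (edgeR adjusted p = 0.00325). Of 26 named changes, 376 values under an alternative gave 365 on the same side of the threshold in the same direction, 11 no longer past it and 0 reversed. Counts under about 40 limit mt-Nd3, mt-Co2, mt-Co3, mt-Atp6, mt-Atp8 and mt-Nd4l.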

Other observations

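Cox4i2 was lower with E+P in both stromal subsets, in 12 of 12 pairs of treated and untreated libraries in each. The GFP+ stromal values rest on few counts, 2, 6 and 4 with E+P and 19, 15, 16 and 6 untreated. In GFP+ stroma the log2 fold change was -2.12 ± 0.42 (SE), with an edgeR adjusted p of 0.0246 (0.0032 to 0.369 over the alternatives), and in tdTomato+ stroma -1.10 ± 0.29, with an edgeR adjusted p of 0.0829 (0.00578 to 0.262). Neither passed the threshold of 0.01. Exact permutation tests gave p = 0.0286 in each, the smallest that 4 against 3 mice allow, and 0.0917 after adjustment.

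Counts of mt-Nd3 split by mouse in all 4 sorted populations. In the 8 libraries of E+P mice 2 and 3 the gene was at or under 0.346 CPM, and in the 20 libraries of the other 5 mice it was at 1.70 to 58.8 CPM. The pattern was noticed after the values were seen, and 97.8% of the 75-base windows of mt-Nd3 are shared with another annotated gene.

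Values of 4 regulators of mitochondrial biogenesis are given beside those of the members. The coactivator Ppargc1a stood at 9.76 to 42.8 CPM in GFP+ luminal cells and 0.801 to 8.09 in tdTomato+ luminal cells (log2 fold change 2.51 ± 0.39, edgeR adjusted p = 0.000177), where the nuclear members had a median of -0.40. In stroma it was at 1.06 to 11.6 CPM in GFP+ and 4.35 to 20.6 in tdTomato+ cells. The nuclear receptor Esrrg was lower with E+P in tdTomato+ luminal cells (-4.17 ± 0.37, edgeR adjusted p = 6.12e-06), in which 15 nuclear members rose. Tfam, which packages and transcribes mitochondrial DNA, was at 13.5 to 33.5 CPM and Nrf1 at 30.6 to 63.1 CPM over all 28 libraries.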
